A study of Mus musculus with 8 samples.

Results

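The mitochondrial respiratory chain genes of this table are the nuclear genes for the subunits of complexes I to V. They were chosen by symbol. The names begin with Ndufa, Ndufb, Ndufc, Ndufs, Ndufv, Uqcr, Atp5 or Cox4 to Cox8 and a letter, or equal Sdha, Sdhb, Sdhc or Sdhd. The 7 complex I assembly factors named Ndufaf were left out. This gave 78 of the 11415 genes of the deposited table: 36 of complex I, 4 of complex II, 8 of complex III, 13 of complex IV and 17 of complex V. All 78 had a mean of at least 1 normalized read in both measures and entered every test. The name rule also takes Atp5s and Atp5sl, whose current RefSeq symbols are Dmac2l and Dmac2, named for assembly of the distal membrane arm and not for a subunit of the enzyme.

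RNA was sequenced from macrophages grown for 5 days in medium with M-CSF from the bone marrow of mice of strain 129S6/SvEvTac and genotype IL10-/-RAG2-/-, so that all groups, the untreated one included, lack functional Il10 and Rag2 by their labels. Per the labels, libraries were made from total RNA after ribosomal depletion with a directional kit, and the macrophages came from 2 independent pools. There were 4 groups of 2 libraries: untreated cells, cells with 195 min of LPS at 1 ng/mL, cells that had 1 ng/mL of IL-10 beside that LPS during all 195 min (called IL-10 throughout), and cells whose LPS was joined by IL-10 in its final 30 min only (called late IL-10; the labels do not restate this IL-10 dose). LPS is bacterial lipopolysaccharide, an activator of macrophages through a Toll-like receptor, and IL-10 is a cytokine that restrains inflammation. The mice's age and number are not stated in the labels. Each gene has 2 measures, an mRNA value and a pre-mRNA value, the latter for unspliced precursor transcripts.

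The respiratory chain passes electrons from NADH (complex I) and succinate (complex II) through coenzyme Q, complex III and cytochrome c to oxygen at complex IV, and complex V, the ATP synthase, uses the proton gradient that complexes I, III and IV build. Most subunits are encoded in the nucleus, and a small set, not analysed here, in mitochondrial DNA. In macrophages activated by LPS, metabolism is known to move from respiration towards glycolysis, succinate oxidation by complex II is known to feed the production of reactive oxygen species, and IL-10 is known to oppose the glycolytic switch.

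Promoter windows from RefSeq (GRCm38.p6, 250 bases before to 50 bases after a gene's start) were matched for 66 of the 78 genes. Among those not matched were Ndufa2, Ndufb9, Ndufs1, Sdhc, Uqcrb, Uqcrc2, Uqcrq, Cox4i1, Cox6a2, Cox6c and Atp5a1. Below, in 5′ to 3′ direction of the gene, is the stretch before the start, without exons of protein-coding genes, of the genes the results turn on: Cox5a and Uqcrfs1, whose pre-mRNA rose with LPS, Sdhb, which fell in both measures, Ndufv3, whose pre-mRNA rose with IL-10, and Cox6a1 and Atp5g3 as examples that hold a searched motif. Capitals mark a motif.
Cox5a, chr9:57520982-57521231 (+): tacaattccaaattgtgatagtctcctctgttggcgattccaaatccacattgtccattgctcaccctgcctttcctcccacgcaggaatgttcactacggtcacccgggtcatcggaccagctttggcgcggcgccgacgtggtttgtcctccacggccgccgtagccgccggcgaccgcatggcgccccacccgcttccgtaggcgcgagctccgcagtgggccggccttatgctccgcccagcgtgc
Uqcrfs1, chr13:30545363-30545566 (-): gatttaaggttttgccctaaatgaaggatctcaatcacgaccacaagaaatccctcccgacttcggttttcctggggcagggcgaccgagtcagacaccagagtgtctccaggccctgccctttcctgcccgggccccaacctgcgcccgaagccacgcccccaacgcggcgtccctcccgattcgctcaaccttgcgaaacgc
Sdhb, chr4:140961021-140961202 (+): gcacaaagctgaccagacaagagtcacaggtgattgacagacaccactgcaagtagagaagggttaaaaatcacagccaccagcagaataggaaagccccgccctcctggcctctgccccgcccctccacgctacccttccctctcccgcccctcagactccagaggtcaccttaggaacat
Ndufv3, chr17:31519981-31520114 (+): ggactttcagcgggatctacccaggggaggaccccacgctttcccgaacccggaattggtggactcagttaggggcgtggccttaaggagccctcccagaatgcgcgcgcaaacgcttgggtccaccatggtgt
Cox6a1, chr5:115348982-115349208 (-): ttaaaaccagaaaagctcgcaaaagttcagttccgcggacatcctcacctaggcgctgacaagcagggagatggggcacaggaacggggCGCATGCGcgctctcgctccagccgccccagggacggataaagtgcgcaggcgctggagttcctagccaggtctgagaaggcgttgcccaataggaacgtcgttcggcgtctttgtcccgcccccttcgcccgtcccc
Atp5g3, chr2:73911327-73911576 (-): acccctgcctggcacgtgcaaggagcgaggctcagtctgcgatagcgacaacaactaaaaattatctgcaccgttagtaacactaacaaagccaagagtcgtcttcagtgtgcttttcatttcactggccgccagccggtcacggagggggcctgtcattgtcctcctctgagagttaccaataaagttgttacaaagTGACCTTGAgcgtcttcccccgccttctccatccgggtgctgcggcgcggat
The capitals in Cox6a1 are the NRF1 motif CGCATGCG, 161 bases before the RefSeq start, and those in Atp5g3 the reverse complement of the ERR half-site TCAAGGTCA, 52 bases before the start. Both strands of the 300-base windows were searched for exact letters. NRF1, a regulator of nuclear respiratory genes, had its motif in 9 of 66 members (13.6%), against 4.59% of 8739 other genes of the table and 1.87% of all 32851 windows. The YY1 motif AAGATGGCG was in 8 members (12.1%), against 3.75% of the other genes and 1.40% of windows. The ETS motif CCGGAAGT, which GABP binds, was in 5 members (7.58%), against 9.57% of the other genes and 3.89% of windows. The ERR half-site was in 2 members (3.03%), Atp5g3 and Sdhd, against 0.320% and 0.423%. The NF-kB motif GGACTTTCC was in 0 of 66 members, against 0.572% and 0.344%. Of the searched motifs, the windows of Cox5a, Uqcrfs1, Sdhb and Ndufv3 held none, and that of Ndufa8, a complex I gene described below, held the NRF1 motif 9 bases before its start.

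Nothing in the columns says which library came from which culture, so p-values measure only the spread between these libraries. Values are normalized reads, the reads of a library divided by its size factor, and all changes are differences of log2(normalized reads + 1) with limma's standard error, n = 2 libraries per group; this scale understates the change of genes with few reads. "Rose" and "fell" mean a Benjamini-Hochberg adjusted p under 0.05 over all genes tested in limma-trend. Over the table, the mRNA reads of a library summed to between 21412968 and 53172133, and its pre-mRNA reads to between 8661271 and 31508394. The smallest LPS mRNA count of any gene was 11 reads, so genes with fewer reads with LPS are not analysed here. Reads of Il10 were present in every library, at 144 to 6199 normalized mRNA reads, and those of Rag2 at 38.8 to 82.7; which part of each gene is disrupted is not given in the labels, so these values do not check the genotype. The members took 0.375% and 0.397% of the mRNA reads of the untreated libraries and 0.249% and 0.295% of those of the LPS libraries. Their share of pre-mRNA reads was 0.251% and 0.260% in untreated cells and 0.112% and 0.166% with LPS.

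The libraries stood apart by more than their groups. Over 11304 genes that are not members, the gaps between the 2 libraries of a group correlated between every pair of groups and measures, with an absolute Pearson r of 0.171 to 0.848 in 28 pairs and signs that sort the libraries into 2 sets of 1 library per group. The labels do not name these sets, and whether they are the 2 macrophage pools cannot be told from the columns, which carry no replicate number. They are called set 1 and set 2 here, and values are given in that order. Pre-mRNA reads were 59.3 to 75.0% of mRNA reads in set 1 and 39.0 to 48.4% in set 2. A fit with the set as a term, chosen after seeing the data, is given beside the fit by group alone; since the sets were matched on the same table, its p-values may be too small.

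Among the members, 51 of 78 had mRNA gaps between the sets of the same sign in all 4 groups, 23 of them higher in set 1 and 28 in set 2, against 54.6% of all genes. Atp5l, for subunit g of complex V, had the widest gap, with mRNA values of 13.2 and 271 in untreated cells, 30.8 and 314 under LPS alone, 17.0 and 397 when IL-10 was there throughout, and 6.46 and 373 when it came late. Its pre-mRNA values were 527 and 446, 733 and 582, 929 and 665, and 774 and 685. So the mRNA of Atp5l was low in every library of set 1, and its pre-mRNA was not. Of the 50-base words of the Atp5l transcript, 68.5% are also in transcripts of other genes, and 12 annotated pseudogenes share at least 1 such word.

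Several members share transcript sequence with other genes in this way, annotated pseudogenes among them. This bears on counting because a read from such a stretch has more than 1 possible origin. Of the 11 members with at least 20% of their 50-base words shared, 4 had a mean mRNA gap between sets of over 1 on the log2 scale (Atp5l, Ndufa12, Cox7c and Ndufb4), against 1 of 26 with a smaller share (Atp5g1) and 0 of 41 with none. In all, 5 of 78 members had such a gap in mRNA, against 7.11% of all 11415 genes tested. In pre-mRNA 0 of 78 did, against 8.57% of 11131. The median mRNA level of the 11 was 327 normalized reads per kb of transcript, against 1038 for the 41 with none shared. Pre-mRNA exceeded mRNA in 6 of the 11 and in 5 of the 41. Atp5g2, for the c subunit of complex V, has 87.4% of its words shared, and its mean over the 8 libraries was 18.8 normalized reads for mRNA and 686 for pre-mRNA. How the authors treated reads with several origins is not stated in the labels, so the mRNA values of Atp5g2, Atp5l and Cox7c, which share more than 0.5 of their words, are uncertain.

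**Figure D1:**
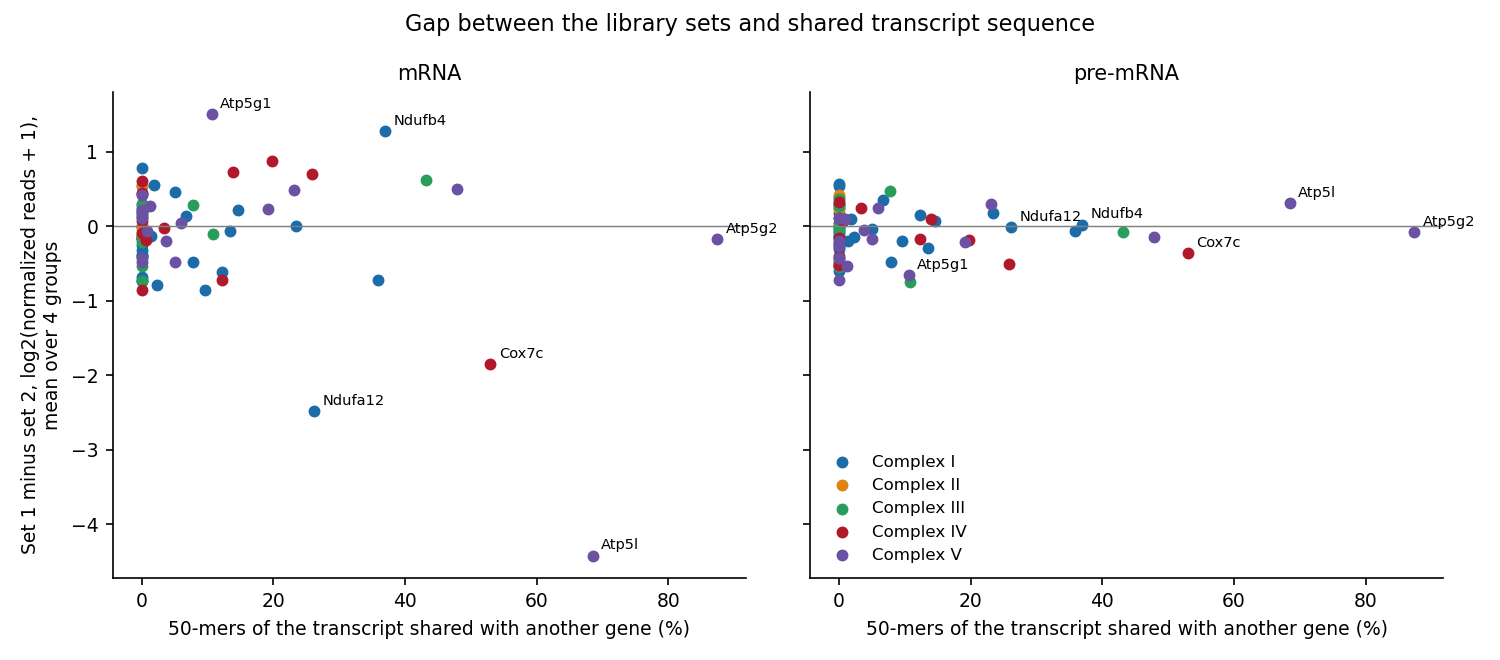
Gap between the library sets (set 1 minus set 2, mean of 4 groups, on the log2(normalized reads + 1) scale) for each of the 78 genes, against the percentage of 50-base words its transcript shares with another gene, for mRNA and pre-mRNA. Atp5l (−4.42), Ndufa12 (−2.48), Cox7c (−1.85), Atp5g1 (1.504) and Ndufb4 (1.27) lie beyond 1 in mRNA, and no gene does in pre-mRNA.

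Levels were compared between genes as mRNA normalized reads per kb of the principal transcript, as the mean of the 8 libraries. In complex I, whose many accessory subunits surround a conserved catalytic core, the highest was Ndufa2 (2345) and the lowest Ndufab1 (17.0), the mitochondrial acyl carrier protein. Complex II ran from Sdhd (1979), a membrane anchor, to Sdhc (678), the other anchor. Sdhc is divided by a transcript of 3171 bases, and by normalized mRNA reads (2149) it was above Sdhb (1944). Complex III ran from Uqcr10 (2582) to Uqcrb (461), which shares 43.2% of its 50-base words with other genes. Complex IV ran from Cox4i1 (8249), its regulatory subunit 4, to Cox6a2 (40.1), the isoform known from heart and muscle. Complex V ran from Atp5b (7298), the catalytic beta subunit, and Atp5a1 (5833), the alpha subunit, to Atp5g1 (6.29).

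Isoform genes of a subunit differed in level. Cox6a1 had 4706 normalized mRNA reads per kb against 40.1 for Cox6a2, and Cox7a2 1020 against 89.7 for the muscle isoform Cox7a1. Cox7a2l, known as an assembly factor of respiratory supercomplexes, had 1437. Atp5g1, Atp5g2 and Atp5g3 encode the same mature c subunit; Atp5g3 had 3631, against 25.7 for Atp5g2 and 6.29 for Atp5g1. The value of Atp5g2 is uncertain for its shared sequence, its pre-mRNA mean of 686 normalized reads was above the 215 of Atp5g3, and Atp5g1 is divided by a transcript of 4715 bases, with 29.7 normalized mRNA reads against 18.8 for Atp5g2. The partners Cox4i2, Cox6b2, Cox8b and Ndufa4l2 were not analysed here, and Ndufa4, now counted with complex IV in much of the literature although its name places it in complex I, had 1329.

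**Figure D2:**
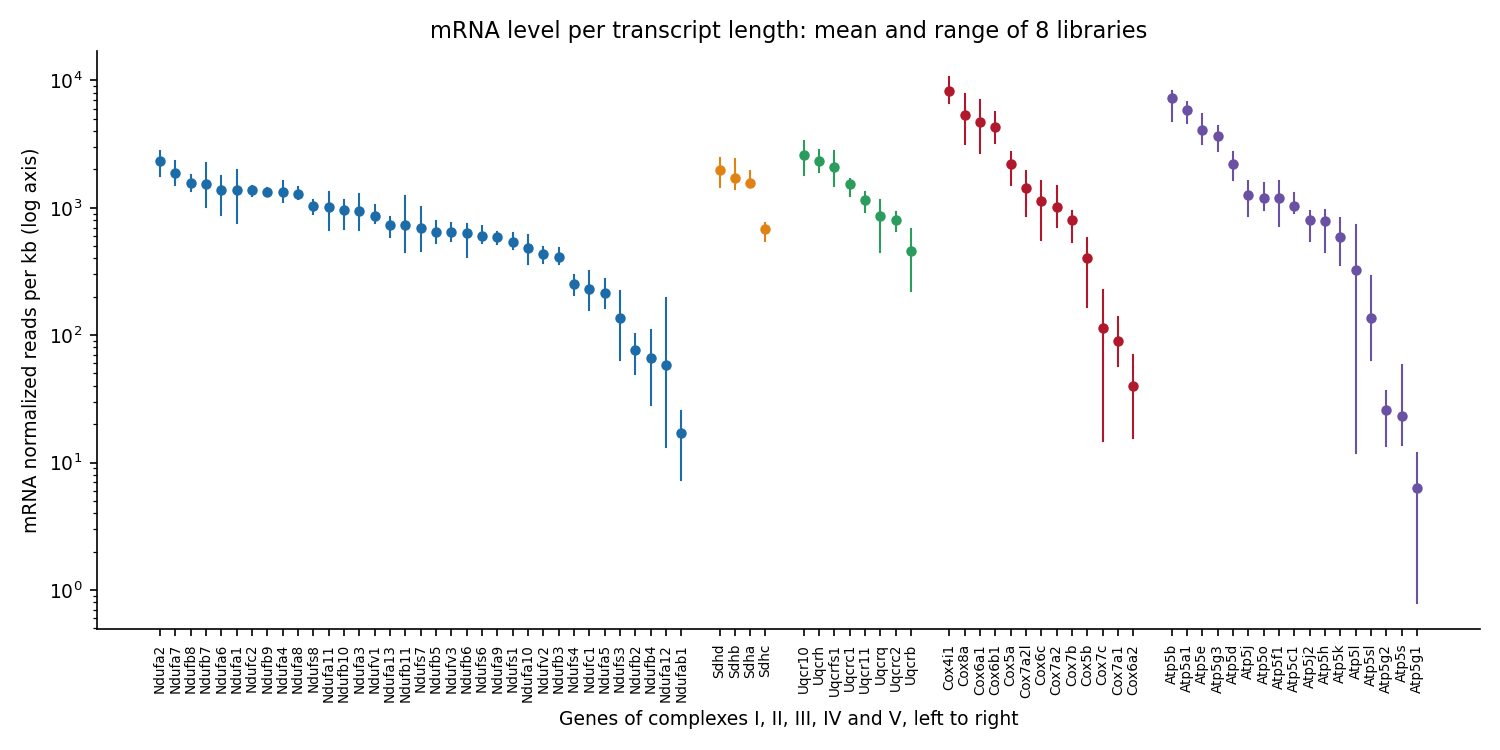
mRNA normalized reads per kb of transcript (log axis) of 77 of the genes by complex, as the mean (point) and the range (line) of the 8 libraries. Levels run from 6.29 for Atp5g1 to 8249 for Cox4i1, and the longest ranges are those of genes whose sets differ, such as Atp5l and Ndufa12.

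LPS against untreated cells asks how macrophage activation changes these transcripts, and all 4 groups' libraries share one estimate of the spread. In mRNA, Cox5a, Cox7b and Atp5b rose and Sdhb, Atp5s and Atp5sl fell, 6 of 78 members, where 35.7% of all 11415 genes passed the same test (19.2% higher, 16.5% lower). On the deposited scaling, 54 of 78 had a change of less than 0.5 on the log2 scale, against 37.7% of all genes, and the median absolute change was 0.331, against 0.704; with total reads 73 of 78 changes were below 0 and the member median was −0.53. The complexes differed in their middle values, with a median mRNA change of −0.04 for complex I, −0.03 for complex II, 0.34 for complex III, 0.59 for complex IV and 0.41 for complex V. In both sets separately, 7 of 8 complex III genes, 8 of 13 of complex IV and 11 of 17 of complex V were higher with LPS, against 12 of 36 of complex I and 42.8% of all genes.

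The scaling decides the sign of the mRNA medians of complexes III to V and of the mRNA changes of Cox7b and Atp5b. The deposited scaling sets the median change of all genes near 0, at 0.01, while scaling to the total reads of the table puts it at −0.74 for mRNA and −0.90 for pre-mRNA. Under total reads the medians of complexes I to V were −0.78, −0.78, −0.41, −0.16 and −0.34, all below 0. With that scaling 0 members rose and 17 fell in mRNA, in place of 3 and 3. Of all 11415 genes, 5698 passed with it, 1203 of them higher. With the set as a term, 20 members rose and 5 fell, where 60.4% of all genes passed (31.8% higher, 28.6% lower). Among the 20 were 8 of 13 genes of complex IV and 7 of 17 of complex V, against 2 of 36 of complex I. Leaving out any 1 of the 8 libraries left 0 to 3 of the 6 mRNA calls: 0 without the LPS library of set 1, 1 (Cox5a) without the untreated library of set 1, 3 without the untreated library of set 2, and 2 without each other library.

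In pre-mRNA, Cox5a, Uqcrfs1 and Ndufs4 rose and 8 members fell, where 44% of 11131 genes passed (22.3% higher, 21.7% lower). Of the 8 that fell, 6 are among the 36 genes of complex I (Ndufa8, Ndufv3, Ndufb3, Ndufb4, Ndufb8 and Ndufb11). The others were Sdhb and Atp5s. Complex I had a median pre-mRNA change of −0.35, against −0.05, 0.22, 0.06 and 0.28 for complexes II to V and −0.11 for all members, which became 0.029 without the LPS library of set 1 and −0.066 without the untreated library of set 1. In both sets 25 of 36 complex I genes were lower with LPS, against 42.9% of all genes, and the libraries of 19 of 36 lay wholly below those of untreated cells, against 36.5% of all genes. With total reads 0 members rose and 35 fell in pre-mRNA, where 5916 of all 11131 genes passed, 1236 of them higher. With the set as a term 10 members rose and 15 fell, where 63% of all genes passed (32.7% higher, 30.2% lower). Of the 36 complex I genes 11 fell in that fit, near the 30.2% of all genes. By group alone 6 of the 36 fell, against 21.7% of all genes, so neither count shows an excess in complex I. The count of pre-mRNA calls was 1 (Atp5s) without the untreated library of set 2, 2 (Cox5a and Atp5s) without that of set 1, 4 without the LPS library of set 1, and 8 or 9 without each other library, in place of 11.

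**Figure D3:**
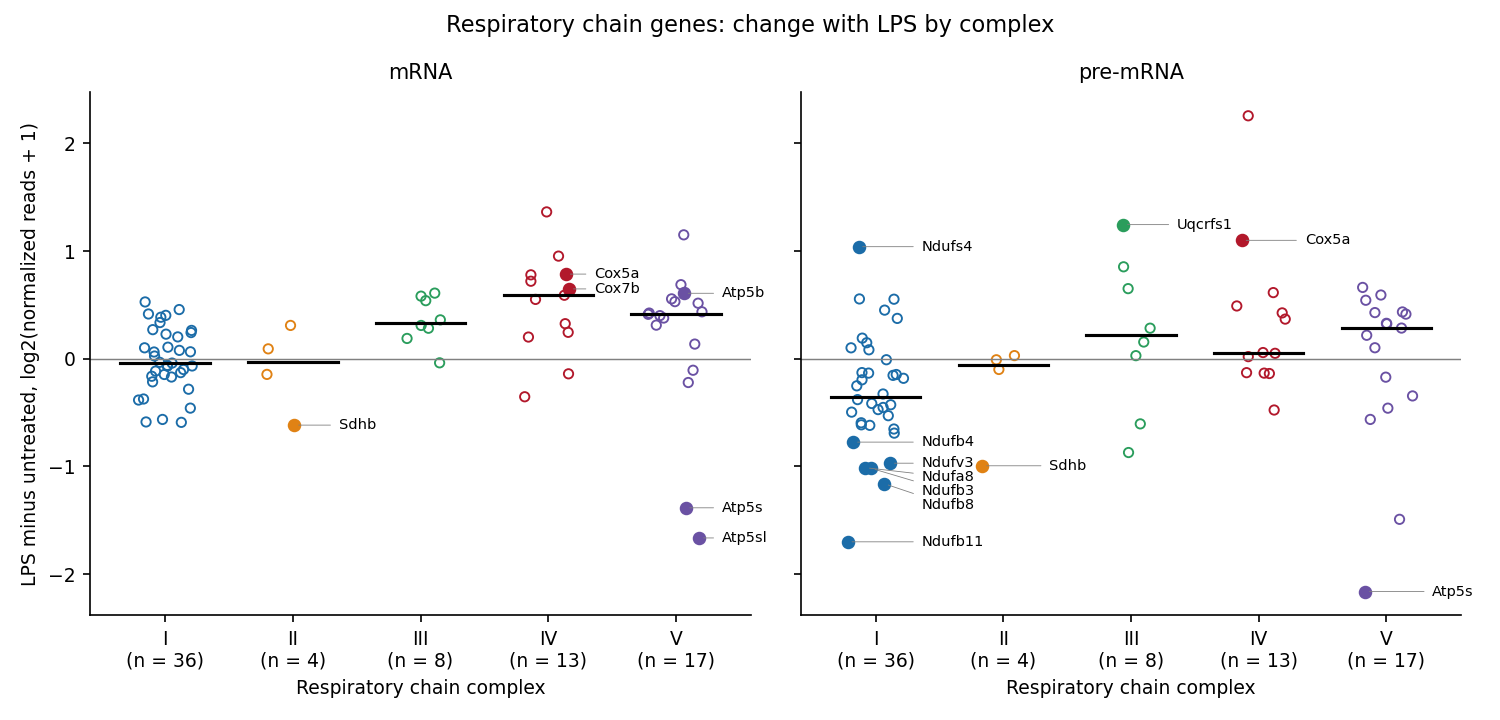
Change of each gene with LPS (LPS minus untreated, on the log2(normalized reads + 1) scale) by complex, for mRNA and pre-mRNA; filled, named points passed an adjusted p of 0.05 and black bars are medians. Complexes III to V have medians above 0 in mRNA (0.34, 0.59, 0.41), which turn negative when libraries are scaled to total reads, and complex I has a median of −0.35 in pre-mRNA.

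Of the core subunits of complex I described here (Ndufs1, Ndufs3, Ndufs7, Ndufs8, Ndufv1 and Ndufv2), none passed the test in either measure by group alone. The mRNA of Ndufs1, the large iron-sulfur subunit, was 1513 and 1525 in untreated cells and 1593 and 1318 with LPS, and that of Ndufv1, which binds NADH and the flavin, was 1324 and 1739 against 1277 and 1506. Their mRNA changes were −0.07 ± 0.21 and −0.13 ± 0.22, and those of Ndufs3, Ndufs7, Ndufs8 and Ndufv2 lay between −0.59 (Ndufs3) and −0.04 (Ndufs8). In pre-mRNA these changes ran from −0.60 (Ndufs7) to −0.13 (Ndufs8), and Ndufs3 and Ndufs7 fell in the fit with the set as a term (limma adjusted p = 0.035 and 0.026).

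The accessory subunits of complex I held its calls. Ndufa8 had pre-mRNA values of 465 and 479 in untreated cells and 185 and 296 with LPS, so both LPS libraries lay below both untreated ones, and it fell by 1.01 ± 0.27 (adjusted p = 0.018). Its mRNA did not change past the threshold, with 1048 and 1246 in untreated cells and 1066 and 1125 with LPS. Ndufv3, a small subunit of the NADH-oxidising module, had pre-mRNA values of 389 and 380 without LPS and 155 and 247 with it, and fell by 0.97 ± 0.28 (adjusted p = 0.025). Ndufb3, Ndufb4, Ndufb8 and Ndufb11 belong to the membrane arm, and their pre-mRNA fell by 0.77 (Ndufb4) to 1.70 (Ndufb11). Ndufb11 rests on few reads, with 18.1 and 27.7 normalized reads in untreated cells and 4.70 and 8.10 with LPS, and in limma-voom its adjusted p was 0.102.

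Ndufs4, an accessory subunit whose loss is known to cause Leigh-like disease, moved the other way. Its pre-mRNA values were 1956 and 1223 in untreated cells and 4287 and 2363 with LPS, a rise of 1.04 ± 0.36 (adjusted p = 0.049) that scaling to total reads reduces to 0.12. Its gene, at chr13:114287795-114388258 on the minus strand, spans 100464 bases with 5 exons. Its mRNA values were 393 and 353 against 458 and 436, which did not pass the test.

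Of the 4 complex II genes only Sdhb passed the test, in both measures. Sdhb encodes the iron-sulfur subunit, which hands electrons from the flavin to coenzyme Q, and lies (mm10, GENCODE M21) at chr4:140961203-140979193 on the plus strand with no other annotated gene over it. Its mRNA values were 2394 and 2783 in untreated cells and 1605 and 1764 with LPS, a fall of 0.62 ± 0.18 (adjusted p = 0.033). Pre-mRNA was 1817 and 2345 against 850 and 1262, and it fell by 0.99 ± 0.30 (adjusted p = 0.029). In both measures the LPS libraries lay below the untreated ones in each set, and with total reads Sdhb fell by 1.37 in mRNA and fell by 1.91 in pre-mRNA. The mRNA adjusted p of Sdhb was 0.052 to 0.182 when any 1 library was left out.

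For Sdha, the flavoprotein that oxidises succinate, mRNA was 4428 and 5607 in untreated cells and 4596 and 4414 with LPS, a change of −0.15 ± 0.18. The anchors Sdhc and Sdhd changed by 0.31 ± 0.17 and 0.09 ± 0.33 in mRNA. In pre-mRNA the changes of Sdha, Sdhc and Sdhd were 0.03, −0.01 and −0.10, so the fall of Sdhb by 0.99 had no counterpart of that size in the other 3 genes; the difference between the genes was not tested.

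In complex III, Uqcrfs1 encodes the Rieske iron-sulfur protein, which takes electrons from coenzyme Q. Its gene lies at chr13:30540308-30545362 on the minus strand, with no other gene over it and no 50-base word shared with another. Its pre-mRNA was 93.8 and 105 in untreated cells and 247 and 227 with LPS, a rise of 1.25 ± 0.33 (adjusted p = 0.019), or 0.33 with total reads. In mRNA the values were 2473 and 2012 against 3513 and 3172, so that the LPS libraries were above the untreated ones, a change of 0.58 ± 0.22 that missed the threshold by group alone (adjusted p = 0.078), passed with the set as a term (0.0032) and turned to −0.17 with total reads. Uqcr11, a small subunit, had changes of opposite sign, 0.36 ± 0.20 in mRNA and −0.87 ± 0.48 in pre-mRNA, neither past the threshold by group alone.

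Complex IV held the largest mRNA rise that passed the test. Cox5a is a nuclear subunit at the matrix side of cytochrome c oxidase, with its gene at chr9:57521274-57532426 on the plus strand, overlapped on the minus strand by Gm26631, annotated as a bidirectional promoter lncRNA. Its mRNA values were 966 and 1000 in untreated cells and 1733 and 1660 with LPS, a rise of 0.79 ± 0.16 (adjusted p = 0.011), and 0.04 with total reads. Its pre-mRNA values were 418 and 359 against 931 and 741, a rise of 1.10 ± 0.24 (adjusted p = 0.0078), and 0.18 with total reads. The mRNA call of Cox5a was lost without the LPS library of set 1 (adjusted p = 0.082) and its pre-mRNA call without the untreated library of set 2 (adjusted p = 0.0504).

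Cox7b, a small subunit of the same complex, had mRNA values of 540 and 617 in untreated cells and 862 and 951 with LPS, a rise of 0.65 ± 0.20 (adjusted p = 0.041) that turns to −0.10 with total reads. Its pre-mRNA was 274 and 271 against 221 and 279. Cox4i1, the most abundant member per kb, had mRNA of 6010 and 5342 against 7951 and 5339, so set 1 was higher with LPS and set 2 was level. The largest upward mRNA change of any member was that of Cox7c, 1.36 ± 1.10, which did not pass. Its values were 7.94 and 59.6 in untreated cells and 28.0 and 123 with LPS. Cox6a2 had the largest pre-mRNA change, 2.26 ± 1.26, on 0 and 0 normalized reads in untreated cells and 3.53 and 4.05 with LPS, which did not pass either.

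In complex V, Atp5b, the catalytic beta subunit, had mRNA values of 9238 and 11655 in untreated cells and 15838 and 15794 with LPS. It rose by 0.61 ± 0.19 (adjusted p = 0.043), and the sign turned with total reads (−0.14). Its pre-mRNA values were 408 and 360 against 544 and 678, a change of 0.66 ± 0.24 (adjusted p = 0.057). How strand was used in counting is not given in the sources used here, so reads of overlapping genes cannot be told apart. Annotated small RNA genes (Snord59a and Mir677) lie within Atp5b. Atp5a1, the alpha subunit that sits beside it in the catalytic head, changed by 0.41 ± 0.19 in mRNA (adjusted p = 0.14, and 0.034 with the set as a term).

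The 2 largest falls in mRNA were those of the genes that are not subunits. Atp5sl (now Dmac2), an assembly protein of complex I, had mRNA of 691 and 585 in untreated cells and 165 and 241 with LPS, and fell by 1.67 ± 0.38 (adjusted p = 0.016). Atp5s (now Dmac2l, or factor B) had 93.9 and 52.1 against 26.6 and 25.8, and fell by 1.39 ± 0.44 (adjusted p = 0.045). Its pre-mRNA fell by 2.16 ± 0.34 (adjusted p = 0.0020), from 375 and 291 to 69.3 and 76.9. That pre-mRNA call of Atp5s held when any 1 library was left out (adjusted p = 0.0025 to 0.020), the only one of the 17 calls with LPS of which this is true.

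**Figure D4:**
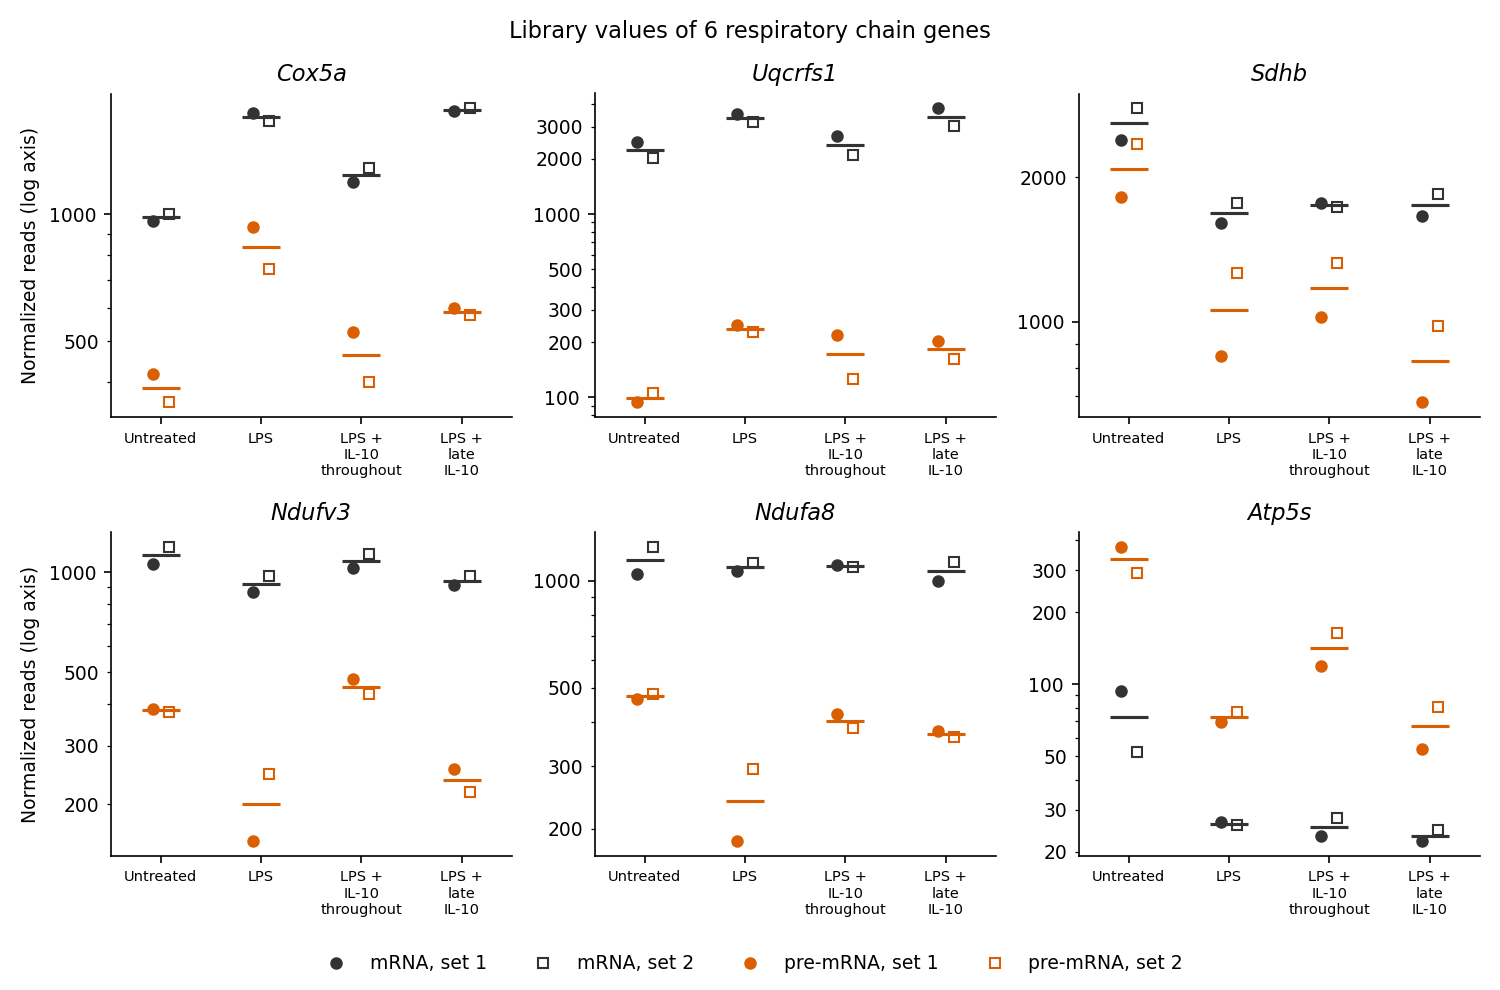
Normalized reads (log axis) in every library for Cox5a, Uqcrfs1, Sdhb, Ndufv3, Ndufa8 and Atp5s in the 4 groups; filled circles are set 1, open squares set 2, black mRNA, orange pre-mRNA, and bars group means. Cox5a pre-mRNA runs from 359 to 418 in untreated cells and 741 to 931 with LPS, and Ndufv3 pre-mRNA from 155 to 247 with LPS and 429 to 476 with IL-10 throughout.

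Whether pre-mRNA and mRNA changed by different amounts with LPS was tested in one limma-trend fit of both measures, which takes them as independent, although 1 RNA sample gave both. No member passed by group alone, where 1.24% of all genes did. At an unadjusted p under 0.05 there were 6 members, all with the lower change in pre-mRNA (Ndufa8, Atp5j2, Ndufb8, Ndufb3, Cox7b and Uqcr11). The share of all genes at that unadjusted p is not given here, so no result about the members is drawn from the 6. The member median of the difference was −0.22, against −0.02 for all genes, and −0.38 against −0.19 with total reads; leaving out 1 LPS library of each measure (of different sets) gave −0.12 or −0.34. With the set as a term 4 passed, where 9.39% of all genes did: Ndufb3 (−0.98), Uqcr11 (−1.23) and Atp5j2 (−0.86) had the lower change in pre-mRNA and Cox7a2l (0.75) the higher.

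IL-10 throughout was compared with LPS alone to see what IL-10 given with the stimulus changed. These comparisons share the LPS libraries with the one above, so the values stand side by side and no relation between them is drawn. In mRNA 0 of 78 members passed limma-trend, where 2.24% of all genes did; Cox5a alone had an unadjusted p below 0.05 and was lower, limma-voom likewise called 0, and 75 of 78 changes were below 0.5 in size, against 69.3% of all genes. The member median was −0.07, and 0.19 with total reads, where all genes were at 0.25; it was −0.018 without the IL-10 throughout library of set 1 and −0.038 without the LPS library of set 1. With the set as a term, where 15.3% of all genes passed, Cox5a and Uqcrfs1 fell.

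The mRNA of Cox5a was 1193 and 1287 with IL-10 throughout, beside 966 and 1000 in untreated cells and 1733 and 1660 with LPS. The difference from LPS was −0.45 ± 0.16 (limma adjusted p = 0.26, and 0.036 with the set as a term), and −0.19 with total reads. Cox5a was described for its rise with LPS, and the same LPS libraries are the reference here, so no return towards untreated values is drawn. Its pre-mRNA was 527 and 401, against 931 and 741 with LPS alone, a difference of −0.85 ± 0.24 (adjusted p = 0.076, and 0.0074 with the set as a term). Uqcrfs1 mRNA was 2659 and 2091, a difference of −0.50 ± 0.22 (adjusted p = 0.36, and 0.024 with the set as a term). In each set, both genes had less mRNA with IL-10 throughout than with LPS alone. The largest mRNA differences of members were those of Ndufab1 (0.92 ± 0.58) and Cox6a2 (−0.81 ± 0.63), and neither passed.

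In pre-mRNA 1 of 78 members passed, Ndufv3, where 6.7% of all genes did (2.44% higher). Its values were 476 and 429 with IL-10 throughout against 155 and 247 with LPS alone, a rise of 1.20 ± 0.28 (adjusted p = 0.046), larger in set 1 (1.61) than in set 2 (0.80). The call ended with total reads (adjusted p = 0.056) and without each of 7 of the 8 libraries in turn (adjusted p up to 0.22). Ndufa8 had 420 and 385, a difference of 0.78 ± 0.27 (adjusted p = 0.13) that passed with the set as a term (0.043), where 25.1% of all genes passed and Cox5a fell. Over the members, 62 of 78 differences were above 0 and 40 were so in both sets, against 37.1% of all genes in both sets; the median was 0.17, against 0.00 for all genes, and 0.63 against 0.46 with total reads. Without the LPS library of set 1 the median was 0.039 with 46 of 78 above 0, and it was 0.26 without the IL-10 throughout library of set 2. In complex I, 24 of 36 were above 0 in both sets. The largest difference was that of Ndufb11, 1.82 ± 0.59 (adjusted p = 0.11), on 32.4 and 18.3 normalized reads against 4.70 and 8.10.

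Late IL-10 against LPS alone gave no call among the members in either measure. With 2 libraries per group, a lack of calls does not show that the groups are alike. In mRNA 0 of 78 passed, where 0% of all genes did, 0 at an unadjusted p under 0.05 and 0 in limma-voom, and 77 of 78 changes were below 0.5 in size (94.4% of all genes). The mRNA of Cox5a was 1757 and 1783 and that of Uqcrfs1 3781 and 3006, at or near the values with LPS alone. In pre-mRNA 0 of 78 passed, where 1.04% of all genes did; limma-voom called 0, and at an unadjusted p under 0.05 Ndufa8 was higher (0.66 ± 0.27, with 377 and 364 against 185 and 296) and Ndufa2 lower (−0.91 ± 0.37). Of the pre-mRNA changes, 72 of 78 were below 0.5 in size, against 77.5% of all genes. The largest mRNA differences were those of Ndufb2 (0.27 ± 0.47) and Atp5l (−0.92 ± 2.43). The largest upward difference in pre-mRNA was that of Ndufb11 (0.73 ± 0.59).

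**Figure D5:**
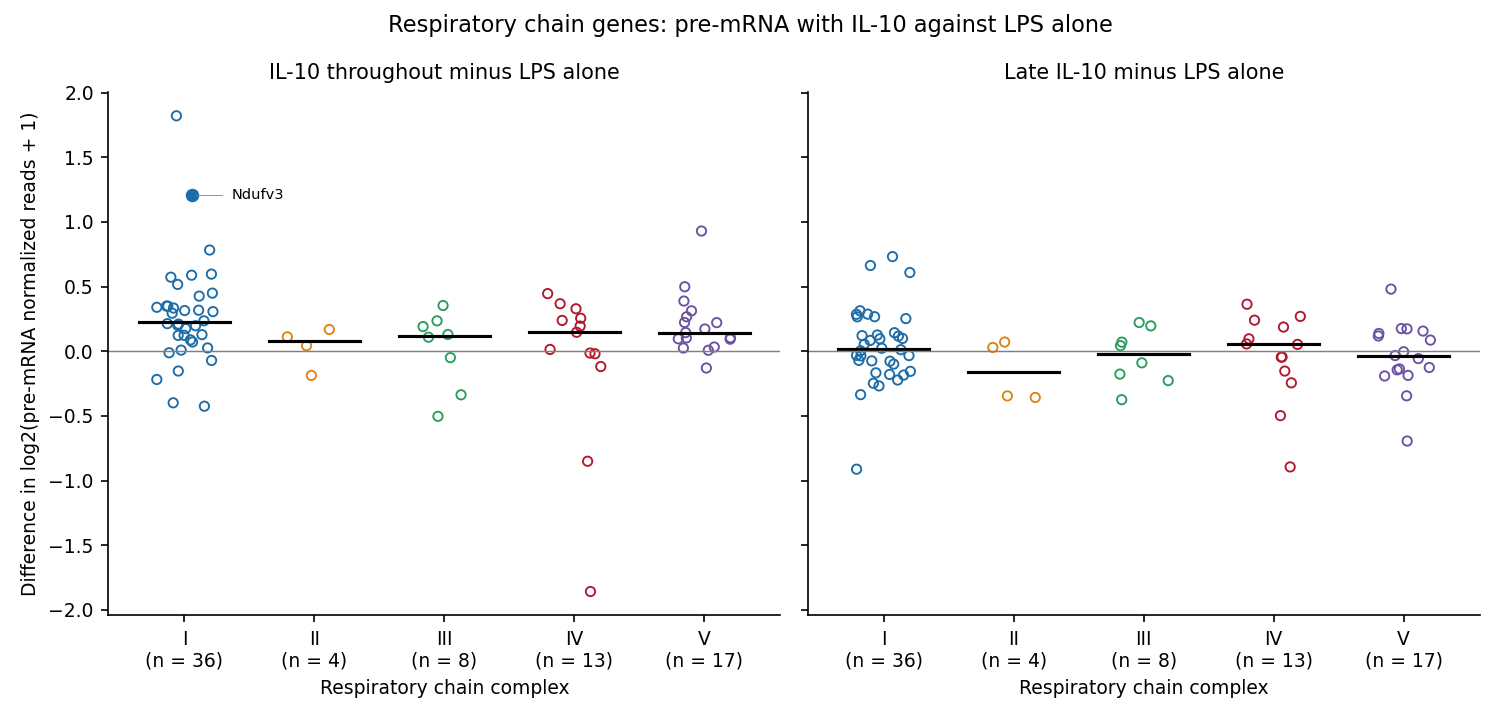
Difference in pre-mRNA (log2(normalized reads + 1) scale) from LPS alone for IL-10 throughout and late IL-10, by complex; the filled, named point passed an adjusted p of 0.05 and black bars are medians. Only Ndufv3 (1.20) with IL-10 throughout is filled; both panels share the LPS libraries.

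Between the 2 IL-10 schedules, 0 of 78 members passed in mRNA (1.09% of all genes) and 0 in pre-mRNA (2.96%), and limma-voom also called 0 in both. At an unadjusted p under 0.05, Cox5a was lower in mRNA and Ndufv3, Atp5s and Ndufs3 were higher in pre-mRNA with IL-10 throughout. With the set as a term, Cox5a (−0.51 ± 0.10) and Uqcrfs1 (−0.52 ± 0.10) were lower in mRNA, where 13.7% of all genes passed. In the same fit of pre-mRNA, where 23.8% did, Sdhb, Ndufv3, Atp5s, Ndufs3 and Ndufs7 were higher, by 0.51 to 1.07. The pre-mRNA of Sdhb was 1024 and 1322 when IL-10 was there throughout, against 679 and 977 when it came late.

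Genes that serve the chain were taken from lists beside it, with LPS against untreated cells and the backgrounds given above. Of 43 assembly factors tested in mRNA, 2 rose and 9 fell, with a median of −0.16, and of 41 in pre-mRNA 5 rose and 8 fell. Cox18, which inserts a complex IV core subunit into the membrane, rose by 1.35 ± 0.29, and Surf1, needed for complex IV assembly, fell by 1.12 ± 0.28 in mRNA. Ecsit and Timmdc1, which assemble complex I, fell in both measures, Ecsit by 1.18 ± 0.34 and Timmdc1 by 1.03 ± 0.32 in mRNA. Of 12 coenzyme Q genes, 1 rose and 3 fell in mRNA: Coq10b rose by 2.31 ± 0.35, while its paralogue Coq10a fell by 1.85 ± 0.41, from 619 and 777 to 139 and 266.

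Of 8 genes for electron carriers and partners of the chain, Gpd2, the glycerol-3-phosphate dehydrogenase that feeds electrons to coenzyme Q, rose in mRNA from 2500 and 2863 to 15292 and 11150, by 2.29 ± 0.29, and by 1.54 with total reads. Dhodh, the dehydrogenase of pyrimidine synthesis that also feeds coenzyme Q, fell by 1.04 ± 0.27. Cytochrome c (Cycs) rose in pre-mRNA by 2.13 ± 0.66 and had an mRNA change of 0.88 ± 0.63 that did not pass. Of 17 genes of the tricarboxylic acid cycle, 3 rose in mRNA (Dld, Cs and Dlst) and 2 fell (Fh1 and Idh2); in pre-mRNA the same 3 rose and 6 fell, and Idh2 fell by 3.09 ± 0.40. The rise of Dlst turns to a fall with total reads, −0.12 in mRNA and −0.07 in pre-mRNA.

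Of 17 genes for expression of mitochondrial DNA and regulators of respiratory genes, 5 rose in mRNA and 1 fell (Peo1, the mitochondrial helicase). The 5 were Pprc1, Nrf1, Gabpa, Gabpb1 and Esrra, which encode regulators that act on nuclear respiratory genes, with rises of 0.89 ± 0.25 (Esrra) to 1.61 ± 0.31 (Gabpb1). Nrf1 went from 1089 and 987 to 2181 and 1807. These rises are on the deposited scaling, and scaling to total reads puts the median mRNA change of all genes at −0.74. Tfam, the packaging factor of mitochondrial DNA, had a change of 0.01 ± 0.33. With IL-10 throughout, 1 coenzyme Q gene (Coq4, 1.80 ± 0.33) and 1 cycle gene (Idh3a, 1.19 ± 0.28) rose in pre-mRNA against LPS alone.

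Markers of other cells that are in the table moved with LPS as well. Every gene of the table has at least 11 mRNA reads in each LPS library, while 413 genes had fewer in an untreated library. Markers with few reads with LPS are thus absent, which favours rises with LPS, and no result on cell content is drawn from them. Of the 9 macrophage markers, 8 are in the table, with a summed mRNA level of 496429 to 512980 normalized reads in untreated cells and 789951 to 836419 with LPS; the median change of the 8 was −0.07, Cd14 rose and Mertk fell. The 5 of 9 dendritic cell markers in the table summed to 1363 to 2911 in untreated cells, to 9528 to 17955 under LPS alone, to 3057 to 4661 when IL-10 was there throughout, and to 8944 to 16008 when it came late. The 8 of 12 neutrophil markers summed to 4480 to 5579, 5247 to 6985, 12183 to 13672 and 5998 to 8617 in the same order. With LPS 5 of these 8 rose (S100a9, Ltf, Ngp, Camp and Mpo; median 2.87), and with IL-10 throughout only Csf3r rose against LPS alone, from 3985 and 2758 to 10965 and 10045, while the median of the 8 was −0.43. The 3 of 8 T cell markers summed to 3341 to 5608 in untreated cells, nearly all Cd28, and to 449 to 762 with LPS. Of these 3, Cd28 fell and Lck rose in mRNA with LPS. The 2 of 6 stromal markers summed to 122 to 249 in untreated cells (Pdgfra at 0 in both libraries), 2418 to 2637 with LPS, 600 to 687 with IL-10 throughout and 2339 to 2386 with late IL-10. The 2 of 3 endothelial markers ranged from 651 to 2175 and the 1 mast cell marker, Kit, from 1.98 to 44.5; B cell markers were not analysed here. Their part in the members' changes was not tested, and in bulk RNA fewer cells of a type and less RNA per cell cannot be told apart.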

How the data were processed

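RNA-seq of 8 libraries in 4 groups was read from 1 deposited table with 8 value columns. Per the submitters' processing notes, reads were trimmed with Trim Galore, scaled with DESeq and placed on mm10; neither these notes nor the labels name the aligner, the counter, the annotation or the rule that assigns pre-mRNA. Each deposited column is a normalized signal, the mean over the 2 libraries of a group of reads divided by size factors. From the arithmetic of these means the whole reads of both libraries were worked out for 100% of values in every column (largest relative error 5.5e-15), and library values were computed from them. Size factors recomputed as medians of ratios matched those worked out.

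The test was limma-trend (limma 3.58.1, R 4.3.3) on log2(normalized reads + 1) over genes with a mean of at least 1, with group as the only term and Benjamini-Hochberg adjustment over 11415 genes (mRNA) or 11131 (pre-mRNA). The script was tested on simulated data. The planned edgeR and DESeq2 fits were not run: the deposited columns are means of 2 libraries, and the reads worked out from them were tested with limma-voom instead. Alternatives were pseudocount 8, a mean of at least 10, total-read scaling and leaving out each library; limma-voom and the library set as a term were chosen after seeing the data.

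Named were members past the threshold (at most 12 per comparison and measure), the largest rise and fall, the highest and lowest level in each complex, the core subunits of complex I, the Sdh genes and isoform sets. Other members were named after their values were seen. The members and lists were chosen with earlier results of these data known. Shared 50-base words were counted over GENCODE M21 transcripts. Values of 1 member are not reported here by name; it is counted in the totals.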

Additional observations from a re-analysis of the deposited data

How the results depend on the processing

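Scaling to total reads, which puts the median LPS change of all genes at −0.74 in mRNA and −0.90 in pre-mRNA, moved counts and medians. With LPS 17 members then passed in mRNA, where 5698 of all 11415 genes did, and 35 in pre-mRNA, where 5916 of 11131 did. The member medians were −0.53 and −1.03, and Cox7b (−0.10) and Atp5b (−0.14) changed sign in mRNA. The member medians with IL-10 throughout against LPS became 0.19 in mRNA and 0.63 in pre-mRNA (0 members passed), with late IL-10 0.019 in mRNA, and between the IL-10 schedules 0.19 and 0.59. With the library set as a block, the counts were 25 and 25 with LPS (mRNA, pre-mRNA), 2 and 3 with IL-10 throughout, 2 and 5 between the schedules, and 4 for pre-mRNA minus mRNA. Leaving out 1 library gave 0 to 3 members with LPS in mRNA, 1 to 9 in pre-mRNA, and 0 to 2 with IL-10 throughout in pre-mRNA. Medians then ran from −0.12 to 0.029 for LPS in pre-mRNA, −0.088 to −0.018 and 0.039 to 0.26 for IL-10 throughout in mRNA and pre-mRNA, −0.0043 to 0.038 and −0.080 to 0.14 for late IL-10 in mRNA and pre-mRNA, and −0.094 to −0.033 between the schedules in mRNA. Single genes whose sign turned ran from −0.017 to 2.74 (Cox7c, LPS, mRNA), −0.20 to 0.75 (Ndufb2) and −3.75 to 1.90 (Atp5l, late IL-10, mRNA), and −2.33 to 0.40 (Cox6a2, pre-mRNA, between the schedules). Where a library was left out, the other library of its group was assumed to vary like the other groups; the cause of the other shifts was not tested. edgeR and DESeq2 were not run. No paired analysis was possible because the deposited columns carry no replicate numbers; the block above uses sets matched from the data, not a labelled pairing. Few reads limit Ndufb11 and Cox6a2 in pre-mRNA.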
